A study of Homo sapiens with 12 samples.

Results

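The enzymes described here are 56 human genes of drug metabolism, chosen by name: cytochromes P450, their electron donor POR, other phase I enzymes, and the transferases that conjugate their products. The set was chosen with earlier results of these data known. Of these, 55 were analysed here from a gene table of 40825 rows, taking for a symbol on several rows the row with the highest total count. CYP7A1 was not analysed here. A mean of at least 0.5 FPKM over all libraries was needed for the test across genes, and 35 of the 55 met it, against 15587 genes in all. Of the other 20, a looser expression filter (edgeR's filterByExpr) tested 18, and CYP8B1 and GSTA1 were tested only without a filter, where neither was called for any comparison. Of the 35 tested, 26 reached 0.5 FPKM in each of the 4 groups. The other 9 (CYP2B6, CYP4F12, CYP4V2, UGT1A6, UGT2B15, SULT1C2, SULT2A1, GSTA2 and NNMT) passed only through the groups in which they were high.

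The RNA came from the established human hepatocellular carcinoma lines Huh7 and PLC/PRF/5, both labelled wild type, kept either with lenvatinib or with DMSO, a common solvent. Lenvatinib blocks receptor tyrosine kinases, among them the VEGF and FGF receptors, and is taken by mouth. Each of the 4 groups (Huh7 with DMSO, Huh7 with lenvatinib, PLC/PRF/5 with DMSO, PLC/PRF/5 with lenvatinib) held 3 libraries, and no dose or time of exposure was given in the labels. The study asks how syntaxin 6 contributes to lenvatinib resistance, and the comparisons described here ask which enzyme transcripts differ under the drug in each line. The replicates are not said to be separate cultures, so p-values measure the spread between these libraries, which may be technical.

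Hepatocytes clear drugs, hormones and bile acids in steps. Phase I enzymes, chiefly cytochromes P450 fed with electrons by POR, add or uncover a reactive group. Phase II enzymes then attach a polar group, glucuronic acid by UGTs, sulfate by SULTs, glutathione by GSTs, or an acetyl or methyl group, and the product becomes easier to excrete. Liver tumour lines are known for keeping only part of this equipment.

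Total counts per library ran from 70236175 to 75820318. The summed level of 7 hepatocyte markers (ALB, APOA1, APOB, TTR, SERPINA1, FGB, TF), none of them at 0 in any group, was 4421 to 4584 CPM (counts scaled to library size, TMM) in Huh7 with DMSO and 5851 to 9169 with lenvatinib. It was 6717 to 7282 CPM in PLC/PRF/5 with DMSO and 4697 to 4946 with lenvatinib. Of these 7 markers, 5 were called higher and 1 lower in Huh7, and 1 higher and 2 lower in PLC/PRF/5. Their median log2 fold change was 0.73 in Huh7 and 0.42 in PLC/PRF/5, so in PLC/PRF/5 the median and the sum went opposite ways. The sums of leukocyte markers (0.940 to 7.53 CPM), endothelial markers (3.90 to 10.8 CPM) and fibroblast markers (5.22 to 40.6 CPM) were far lower in every library. AFP, a marker of fetal liver, was at 511 to 522 CPM in Huh7 with DMSO, 332 to 414 with lenvatinib, and 43.9 to 60.2 in PLC/PRF/5. The enzyme changes in Huh7 go the same way as the hepatocyte marker sum, and the part of a general hepatocyte shift in them was not tested. In bulk RNA, fewer cells of a type and less RNA per cell cannot be told apart.

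The UGT2 genes carry the largest change among the enzymes, so the starts of 4 of them are shown. Each line gives the 250 bases before the RefSeq start of the gene on GRCh38.p14, 5′ to 3′ along the gene. Capitals mark the longest run that all 4 share.
UGT2B15 (chr4:68670653-68670902, minus strand): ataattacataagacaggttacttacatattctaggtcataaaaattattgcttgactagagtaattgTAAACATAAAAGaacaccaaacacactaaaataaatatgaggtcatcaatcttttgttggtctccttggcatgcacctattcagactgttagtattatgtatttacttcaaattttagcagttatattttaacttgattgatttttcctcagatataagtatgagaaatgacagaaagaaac
UGT2B10 (chr4:68815744-68815993, plus strand): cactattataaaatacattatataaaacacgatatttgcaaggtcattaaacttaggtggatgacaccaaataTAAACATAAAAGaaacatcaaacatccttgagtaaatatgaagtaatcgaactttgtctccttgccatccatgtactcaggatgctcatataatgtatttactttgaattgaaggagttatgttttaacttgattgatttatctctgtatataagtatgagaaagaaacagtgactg
UGT2B11 (chr4:69214749-69214998, minus strand): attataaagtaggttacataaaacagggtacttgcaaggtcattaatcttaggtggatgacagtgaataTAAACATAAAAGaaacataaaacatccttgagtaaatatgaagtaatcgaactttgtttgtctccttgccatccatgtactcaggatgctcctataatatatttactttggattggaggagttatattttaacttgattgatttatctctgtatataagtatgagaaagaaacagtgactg
UGT2B7 (chr4:69096224-69096473, plus strand): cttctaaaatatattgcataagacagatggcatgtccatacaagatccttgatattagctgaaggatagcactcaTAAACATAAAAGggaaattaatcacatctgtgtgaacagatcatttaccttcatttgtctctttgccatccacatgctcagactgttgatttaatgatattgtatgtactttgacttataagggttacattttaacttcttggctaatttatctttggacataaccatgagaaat
The shared run, TAAACATAAAAG, has 12 bases and was found in 6 of 35116 RefSeq promoters of this length (0.0171%). It starts 182 bases before the start in UGT2B15, 177 in UGT2B10, 181 in UGT2B11 and 175 in UGT2B7. The window of UGT2A3, a UGT2 gene called higher in Huh7, is not shown and does not hold the run. Since the run was picked as the longest one shared by the 4 windows shown, these are among the 6, and its rarity is no independent result. Over the aligned bases of these windows, UGT2B10 and UGT2B11 were 93.1% identical, UGT2B15 was 77.4% identical to each of them, and UGT2B7 was the most distant, with 68.0% to UGT2B15, 72.4% to UGT2B10 and 73.0% to UGT2B11. With lenvatinib in Huh7, the libraries of UGT2B15, UGT2B10 and UGT2B11 lay above their controls and those of UGT2B7 below, with UGT2B10 and UGT2B7 not called. Over all genes the groups did not overlap for 41.6%. Any link between these windows and the direction of change was not tested.

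With lenvatinib, 14 of the 35 tested enzymes rose in Huh7 and 0 fell (2 were lower at an unadjusted p under 0.05, and DESeq2 called 17 higher and 0 lower). Each change is a log2 fold change ± its standard error (SE) by edgeR's quasi-likelihood F test, with p adjusted over all genes by Benjamini-Hochberg and a threshold of 0.05. The 14 are 40% of the enzymes, and over all genes 11.4% were called higher and 13.3% lower. Because the set was chosen with earlier results of these data known, its share beside all genes is a description and no independent test. The median change was 0.27 over the 35 enzymes and 0.0018 over all genes. In 22 of the 35 the lenvatinib and DMSO libraries did not overlap, against 41.6% of all genes. Of the 26 enzymes expressed in all 4 groups, 10 rose and 0 fell, with a median of 0.21. The other 4 that rose were CYP4F12, UGT2B15, SULT1C2 and SULT2A1, which passed the filter through treated Huh7 or Huh7 as a whole. By family, the calls were 2 of 3 CYP4 enzymes, 4 of 7 other phase I enzymes, 4 of 6 UGTs, 2 of 3 SULTs, 1 of 9 GSTs and 1 of 3 acetyl- and methyltransferases. Among the 26 expressed in all 4 groups, the calls were 1 of 1 CYP4 enzyme, 3 of 4 UGTs and 0 of 1 SULT. There the other phase I enzymes had 4 of 7, the GSTs 1 of 8 and the acetyl- and methyltransferases 1 of 2. Neither of the 2 tested xenobiotic P450s nor of the 2 sterol P450s was called.

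In PLC/PRF/5 with lenvatinib, 4 of the 35 enzymes rose (CYP4F3, CYP4V2, EPHX1, EPHX2) and 3 fell (POR, UGT1A1, GSTM3). These are 11.4% and 8.57% of the enzymes, near the 9.01% and 11.1% called higher and lower over all genes, so the counts alone say nothing particular of the enzymes in this line. The median change was 0.10 over the enzymes and -0.0075 over all genes, and in 15 of the 35 the groups did not overlap, against 40.1% of all genes. Scaling by library totals in place of TMM moved the share of higher calls over all genes from 44.8% to 63.1%, with the enzymes then at 5 higher and 2 lower. The change itself differed between the lines for 11 enzymes, each of them lower in PLC/PRF/5 than in Huh7, and for 0 in the other direction (31.4% of the 35, against 6.90% of all genes lower and 7.49% higher). Here too the share is a description, as the set was chosen with earlier results known. Of the 26 expressed in all 4 groups, 8 were lower and 0 higher. By edgeR at an unadjusted p under 0.05 there were 13 lower and 0 higher, and DESeq2 called 13 and 0. The exception was limma on log2(FPKM + 1), which called 13 lower and 1 higher, NNMT, at 0.55 (adjusted p = 0.00443); edgeR gave 0.48 ± 0.72 (adjusted p = 0.736) for it.

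**Figure D1:**
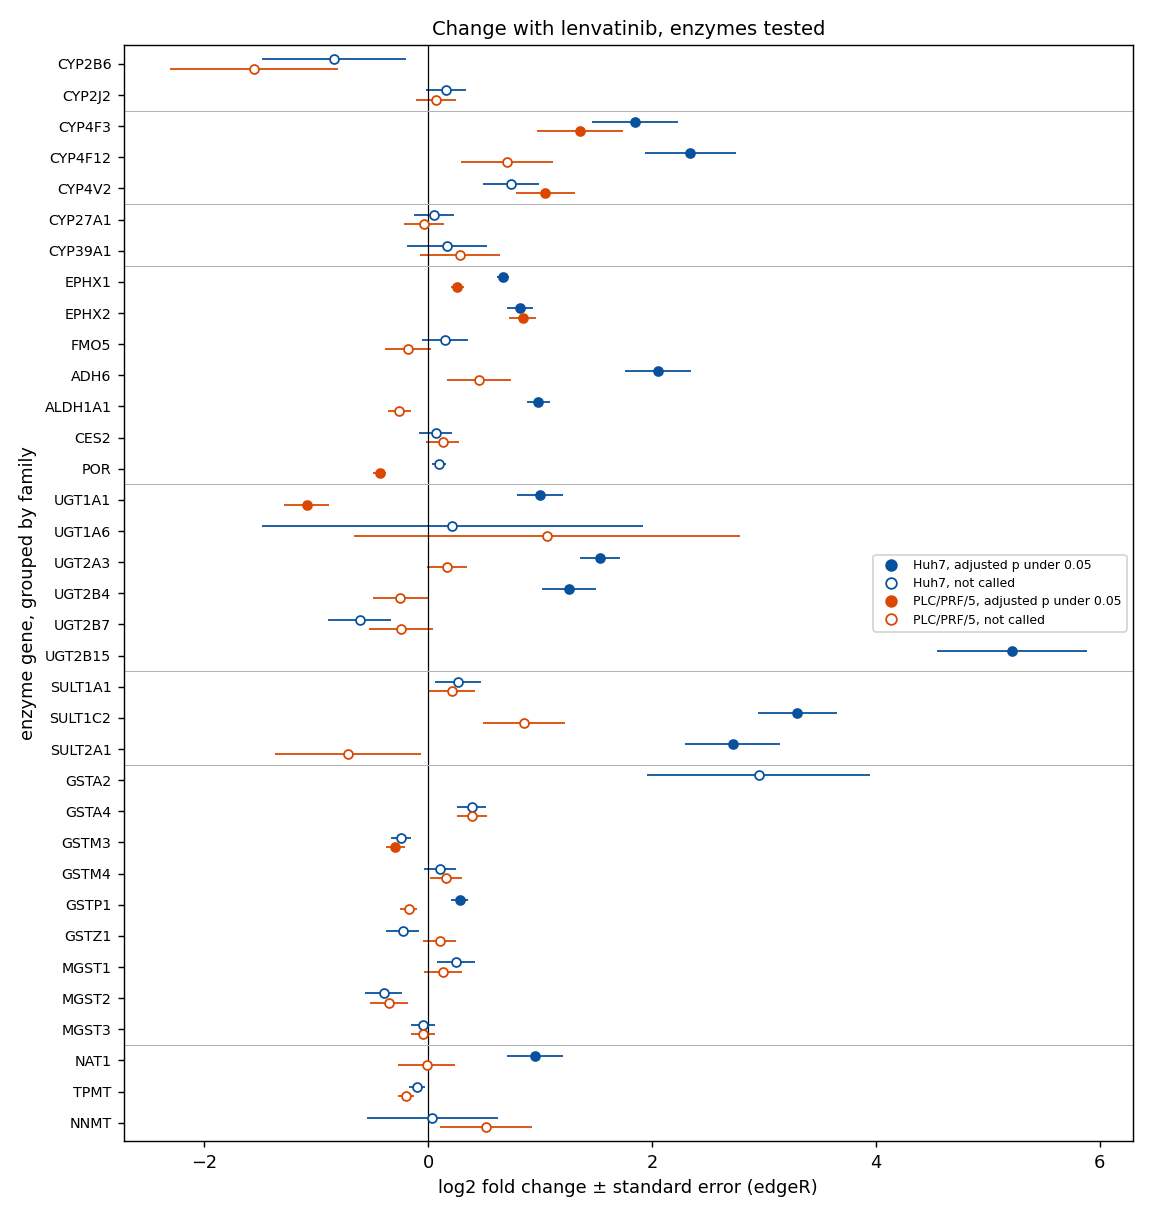
Log2 fold change with lenvatinib (x axis, bars are the standard error from edgeR) of the enzymes tested, by family, in Huh7 (blue) and PLC/PRF/5 (orange); filled points passed an adjusted p of 0.05. The values of UGT2B15 and GSTA2 in PLC/PRF/5 are not drawn because their counts there are at or near 0. The 14 filled blue points all lie to the right of 0, while the orange ones lie on both sides, with UGT1A1 on opposite sides in the lines.

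Among the cytochromes P450, fatty acid hydroxylases of the CYP4 family rose, CYP4F3 and CYP4F12 in Huh7 and CYP4F3 and CYP4V2 in PLC/PRF/5, while neither tested enzyme of drug oxidation was called. CYP4F3, which hydroxylates leukotriene B4, and CYP4F12, which hydroxylates fatty acids, are neighbours (chromosome 19, 15640897 to 15662825, plus strand, and chromosome 19, 15672757 to 15697174, plus strand; GRCh38). CYP4F3 stood at 7.92, 5.08 and 4.84 CPM in the Huh7 libraries with DMSO and at 24.7, 27.5 and 12.03 CPM with lenvatinib. Every treated library was above every control, with replicate 3 the lowest of the treated, and the change was 1.85 ± 0.39 (adjusted p = 0.00563). The PLC/PRF/5 libraries had 4.96, 6.51 and 3.04 CPM and then 12.4, 8.598 and 16.1 CPM, again without overlap, a change of 1.36 ± 0.38 (adjusted p = 0.0306). That call was lost without PLC/PRF/5 DMSO replicate 1 or 3 or lenvatinib replicate 1 or 3, with adjusted p = 0.0797, 0.0928, 0.0692 and 0.101. For CYP4F12, Huh7 gave 4.54, 1.93 and 4.68 CPM with DMSO and 19.3, 26.2 and 11.2 CPM with lenvatinib, a rise of 2.34 ± 0.41 (adjusted p = 0.00192). The groups did not overlap, although the treated libraries spread widely. CYP4F12 was low in PLC/PRF/5, at 0.707, 1.203 and 1.44 CPM and 1.52, 1.798 and 2.14 CPM, with a change of 0.70 ± 0.41 (adjusted p = 0.267) that was not called. Its difference between the lines, -1.64 ± 0.57 (adjusted p = 0.08299), did not pass either.

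CYP4V2, a fatty acid hydroxylase whose loss causes a retinal dystrophy, lies on chromosome 4, 186191520 to 186213456, plus strand, where an exon overlaps KLKB1. It rose in PLC/PRF/5, from 0.943, 1.69 and 1.72 CPM to 2.44, 3.63 and 2.91 CPM, with the groups apart (1.05 ± 0.26, adjusted p = 0.0177). Without PLC/PRF/5 lenvatinib replicate 2 the adjusted p was 0.0614. The call was also lost in limma on log2(FPKM + 1) (adjusted p = 0.224) and in edgeR on the PLC/PRF/5 libraries alone (adjusted p = 0.0545). In Huh7 it went from 11.4, 10.3 and 9.46 CPM to 17.4, 21.4 and 13.2 CPM, also without overlap, but the change of 0.74 ± 0.25 (adjusted p = 0.0542) missed the threshold. Other fits did call this rise: DESeq2 (adjusted p = 0.0165), edgeR on the Huh7 libraries alone (adjusted p = 0.0299), limma on log2(FPKM + 1) and log2(FPKM + 0.1), library totals and a replicate block. RLE factors, filterByExpr and no filter left it uncalled. The difference between the lines was 0.31 ± 0.36 (adjusted p = 0.652).

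CYP3A4, the chief drug-oxidising P450 of adult liver, was close to undetected in every group. Its raw counts were 15, 0 and 0 in Huh7 with DMSO and 8, 23 and 0 with lenvatinib, and 3, 5 and 0 and then 11, 14 and 2 in PLC/PRF/5. At such counts a change was not detectable. CYP2J2, which epoxidises arachidonic acid, was one of the 2 tested xenobiotic P450s, at 7.24, 6.16 and 5.89 CPM in Huh7 with DMSO and 7.03, 6.72 and 7.79 CPM with lenvatinib. Its PLC/PRF/5 values were 6.102, 4.504 and 5.38 CPM and 6.003, 4.55 and 6.198 CPM, so the groups overlapped in both lines. The changes were 0.16 ± 0.18 and 0.07 ± 0.18. CYP2B6, which oxidises many drugs, was lower in every treated Huh7 library, with 8.57, 7.68 and 6.44 CPM and then 4.88, 3.298 and 4.47 CPM. The groups did not overlap, yet the change of -0.84 ± 0.64 (adjusted p = 0.393) was not called, while limma on log2(FPKM + 1) called it lower (adjusted p = 0.00446). CYP27A1, the mitochondrial sterol 27-hydroxylase, stood in Huh7 at 18.9, 19.99 and 19.1 CPM and 19.3, 20.5 and 20.2 CPM. Its levels in PLC/PRF/5 were 5.12, 4.55 and 5.43 CPM with DMSO and 5.51, 5.82 and 3.36 CPM with lenvatinib, and the changes were 0.05 ± 0.18 and -0.04 ± 0.18. CYP39A1, an oxysterol hydroxylase, was at 0.17 ± 0.36 in Huh7 and 0.28 ± 0.36 in PLC/PRF/5, neither called. Of the 18 enzymes below the filter that filterByExpr kept, edgeR called UGT2B11 and UGT2B17 higher with lenvatinib in Huh7 and UGT2B11 lower in PLC/PRF/5. The change of UGT2B11 and ADH4 was lower in PLC/PRF/5 than in Huh7. The other members of these 18 were not called for the drug: CYP2C8, CYP2D6, CYP2E1, CYP3A5, CYP3A7, CYP4F11, CYP7B1, ALDH3A1, CES1, NAT2 and the rest described with their families. CYP3A5, close kin of CYP3A4, was at 0.81 ± 0.30 (adjusted p = 0.0975) in Huh7 and 0.08 ± 0.30 (adjusted p = 0.945) in PLC/PRF/5.

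The epoxide hydrolases rose in both lines. EPHX1, the microsomal enzyme that opens epoxides of drugs and aromatic hydrocarbons, lies on chromosome 1, 225810092 to 225845563, plus strand. Its exons overlap TMEM63A on the other strand. It stood at 86.7, 88.4 and 84.7 CPM in Huh7 with DMSO and 143, 132 and 138 CPM with lenvatinib. The spread within each group was small beside the gap, and the change was 0.67 ± 0.06 (adjusted p = 1.18e-05). EPHX1 went in PLC/PRF/5 from 66.1, 61.5 and 66.1 CPM to 81.7, 75.98 and 74.5 CPM, a smaller rise of 0.26 ± 0.06 (adjusted p = 0.00786), and the difference between the lines was called (-0.41 ± 0.08, adjusted p = 0.00592). EPHX2, the soluble hydrolase of fatty acid epoxides (chromosome 8, 27490779 to 27545564, plus strand), rose in both as well. It gave 42.8, 40.9 and 36.3 CPM and then 72.2, 79.3 and 59.9 CPM in Huh7 (0.82 ± 0.12, adjusted p = 5.50e-04), and 18.98, 21.1 and 19.2 CPM and then 35.4, 31.5 and 39.5 CPM in PLC/PRF/5 (0.84 ± 0.12, adjusted p = 8.35e-04). The treated libraries lay above all controls in both lines, and the difference of the changes was 0.03 ± 0.17.

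The dehydrogenases ADH6 and ALDH1A1 rose in Huh7. ADH6, an alcohol dehydrogenase of class V (chromosome 4, 99202638 to 99219537, minus strand), whose exons overlap AP002026.1 on the other strand, had 2.37, 2.57 and 3.099 CPM with DMSO and 13.97, 11.1 and 8.31 CPM with lenvatinib in Huh7, a rise of 2.05 ± 0.30 (adjusted p = 5.50e-04). PLC/PRF/5 gave 6.05, 3.77 and 2.998 CPM and then 7.09, 4.73 and 5.73 CPM, with overlapping groups and a change of 0.45 ± 0.29 (adjusted p = 0.31). The difference between the lines was -1.60 ± 0.41 (adjusted p = 0.0236). It missed the threshold without Huh7 DMSO replicate 1 or 2, Huh7 lenvatinib replicate 1 or PLC/PRF/5 lenvatinib replicate 2 or 3, with adjusted p = 0.0565, 0.0546, 0.0577, 0.0551 and 0.053. ALDH1A1, which oxidises retinal and aldehydes formed from lipids and drugs (chromosome 9, 72900662 to 73080442, minus strand), was the most abundant enzyme of the set in Huh7, at 327 ± 6.69 FPKM with DMSO and 656 ± 111 FPKM with lenvatinib (SD, n = 3). By library it had 1125, 1092 and 1128 CPM and then 2232, 2586 and 1789 CPM, a change of 0.98 ± 0.10 (adjusted p = 7.15e-05). In PLC/PRF/5 every treated library lay below every control, with 1484, 1525 and 1586 CPM and then 1332, 1223 and 1282 CPM. That change, -0.26 ± 0.10 (adjusted p = 0.104), was not called, and the difference between the lines was (-1.24 ± 0.15, adjusted p = 3.49e-04).

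POR, the reductase that hands electrons from NADPH to the microsomal P450s, fell in PLC/PRF/5. It lies on chromosome 7, 75899200 to 75986855, plus strand, where exons overlap MIR4651 and, on the other strand, TMEM120A. The libraries gave 116, 129 and 138 CPM with DMSO and 96.6, 91.9 and 94.6 CPM with lenvatinib, and the groups were apart (-0.43 ± 0.06, adjusted p = 8.48e-04). In Huh7 it was at 107, 105 and 111 CPM and then 115, 117 and 113 CPM, a change of 0.10 ± 0.06 (adjusted p = 0.283) that was not called, and the difference was -0.53 ± 0.09 (adjusted p = 0.00218). FMO5, a flavin monooxygenase, and CES2, a carboxylesterase that activates prodrugs, were not called in either line, with 0.15 ± 0.21 and 0.07 ± 0.15 in Huh7 and -0.18 ± 0.20 and 0.13 ± 0.15 in PLC/PRF/5. ADH4, a class II alcohol dehydrogenase below the expression filter, had raw counts of 78, 73 and 74 in PLC/PRF/5 with DMSO and 4, 28 and 16 with lenvatinib, and 0, 0 and 0 and then 0, 12 and 7 in Huh7. Within PLC/PRF/5 the lower counts were not called (adjusted p = 0.23 by edgeR after filterByExpr), while the difference between the lines was (adjusted p = 0.0422).

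Of the 6 tested glucuronosyltransferases, UGT1A1, UGT2A3, UGT2B4 and UGT2B15 rose in Huh7, while UGT1A1 fell in PLC/PRF/5. Summed over all 9 listed UGTs, the level went from 8.87 ± 0.953 to 31.9 ± 5.77 FPKM in Huh7 and from 20.6 ± 2.86 to 11.96 ± 1.21 FPKM in PLC/PRF/5 (SD, n = 3). These sums rest in large part on single genes. UGT2B15 alone went from 0.347 to 13.2 FPKM in Huh7, and UGT1A1 held 16.7 FPKM in PLC/PRF/5 with DMSO. UGT1A1, the enzyme that glucuronidates bilirubin (chromosome 2, 233760248 to 233773299, plus strand), had 9.31, 9.58 and 12.3 CPM in Huh7 with DMSO and 16.3, 27.9 and 18.1 CPM with lenvatinib, without overlap (1.0 ± 0.20, adjusted p = 0.00486). The PLC/PRF/5 controls were higher, at 100.3, 77.5 and 88.4 CPM, against 47.4, 41.01 and 36.99 CPM with lenvatinib, where all libraries lay below the controls (-1.09 ± 0.20, adjusted p = 0.00407). The lines thus went in opposite directions, and the difference was -2.08 ± 0.29 (adjusted p = 8.80e-04). UGT1A1 shares its last exons with 8 other UGT1A genes, and 49.5% of the 50-base windows of its transcripts occur in transcripts of other genes, so its counts may be split among them. UGT1A6, which shares 59.9% of its windows, had raw counts of 548, 199 and 0 and then 643, 99 and 156 in Huh7, and of 274, 0 and 218 and then 49, 936 and 109 in PLC/PRF/5. Groups that held both 0 and high counts gave no usable change (SE 1.70 and 1.72).

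The UGT2 genes lie in a row on chromosome 4 of GRCh38 over 68537184 to 69526014, in the order UGT2B17, UGT2B15, UGT2B10, UGT2A3, UGT2B7, UGT2B11 and UGT2B4. UGT2B15, which glucuronidates androgens and several drugs (68646630 to 68670628, minus strand), had 1.26, 0.383 and 1.05 CPM in Huh7 with DMSO and 35.8, 35.2 and 28.8 CPM with lenvatinib. Every treated library was far above every control, and the change was 5.21 ± 0.67 (adjusted p = 7.79e-04). PLC/PRF/5 had 8 raw counts in DMSO replicate 1 and 0 in the other 5 libraries. The called difference between the lines therefore has no size, and without PLC/PRF/5 DMSO replicate 1 it was not called (adjusted p = 1). UGT2B17, an androgen-conjugating neighbour under the expression filter (68537184 to 68568527, minus strand), had raw counts of 0, 4 and 0 with DMSO and 132, 116 and 110 with lenvatinib in Huh7, and 0 in all PLC/PRF/5 libraries. Its sums of 4 and 358 counts give a ratio of 88.7 (34.4 to 327, exact 95% counting interval), and edgeR after filterByExpr gave an adjusted p of 0.01302. Since 27.5% of the 50-base windows of UGT2B15 also occur in UGT2B17 and the handling of shared reads is not known, the counts of the pair cannot be fully told apart.

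UGT2A3 and UGT2B4, which conjugate bile acids among other substrates, rose in Huh7 and were not called in PLC/PRF/5. UGT2A3 (68928463 to 68951791, minus strand) had 4.94, 5.01 and 5.09 CPM and then 14.2, 18.1 and 11.3 CPM in Huh7, a wide gap over very even controls (1.54 ± 0.18, adjusted p = 1.23e-04). The values in PLC/PRF/5 were 3.41, 3.14 and 3.72 CPM and then 3.72, 3.65 and 4.17 CPM (0.17 ± 0.18, adjusted p = 0.566), and the difference was -1.37 ± 0.25 (adjusted p = 0.00426). UGT2B4 (69480165 to 69526014, minus strand) had 9.35, 7.65 and 11.1 CPM and then 25.6, 27.9 and 13.96 CPM in Huh7 (1.26 ± 0.24, adjusted p = 0.00331), with lenvatinib replicate 3 close above the highest control. Its PLC/PRF/5 libraries had 2.47, 2.303 and 2.69 CPM and then 1.89, 2.03 and 2.34 CPM (-0.25 ± 0.25, adjusted p = 0.538), and the difference was -1.51 ± 0.35 (adjusted p = 0.0142).

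UGT2B7, which glucuronidates morphine and many other drugs (69051363 to 69112987, plus strand), was lower in every treated Huh7 library. It had 3.45, 3.48 and 3.92 CPM in Huh7 with DMSO and 2.63, 2.43 and 2.02 CPM with lenvatinib. All treated libraries lay below all controls, but the change of -0.61 ± 0.29 (adjusted p = 0.151) was not called. The PLC/PRF/5 values 2.79, 1.36 and 2.31 CPM and 1.99, 2.12 and 1.36 CPM overlapped (-0.24 ± 0.29). UGT2B11 and UGT2B10 were under the expression filter and share 42.2% and 30.9% of their windows with other genes. UGT2B11 was called by edgeR after filterByExpr in opposite directions in the lines, with 1.61 ± 0.42 (adjusted p = 0.0219) in Huh7 and -1.94 ± 0.42 (adjusted p = 0.0107) in PLC/PRF/5, and a difference of -3.55 ± 0.59 (adjusted p = 0.00294). Its levels were 0.448, 0.6704 and 0.268 CPM and then 1.62, 1.61 and 1.05 CPM in Huh7, and 2.83, 2.36 and 3.13 CPM and then 0.497, 0.651 and 1.03 CPM in PLC/PRF/5. UGT2B10, which conjugates nicotine, had raw counts of 0, 0 and 27 and then 107, 169 and 60 in Huh7, and its change of 3.62 ± 1.67 (adjusted p = 0.201) was not called.

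**Figure D2:**
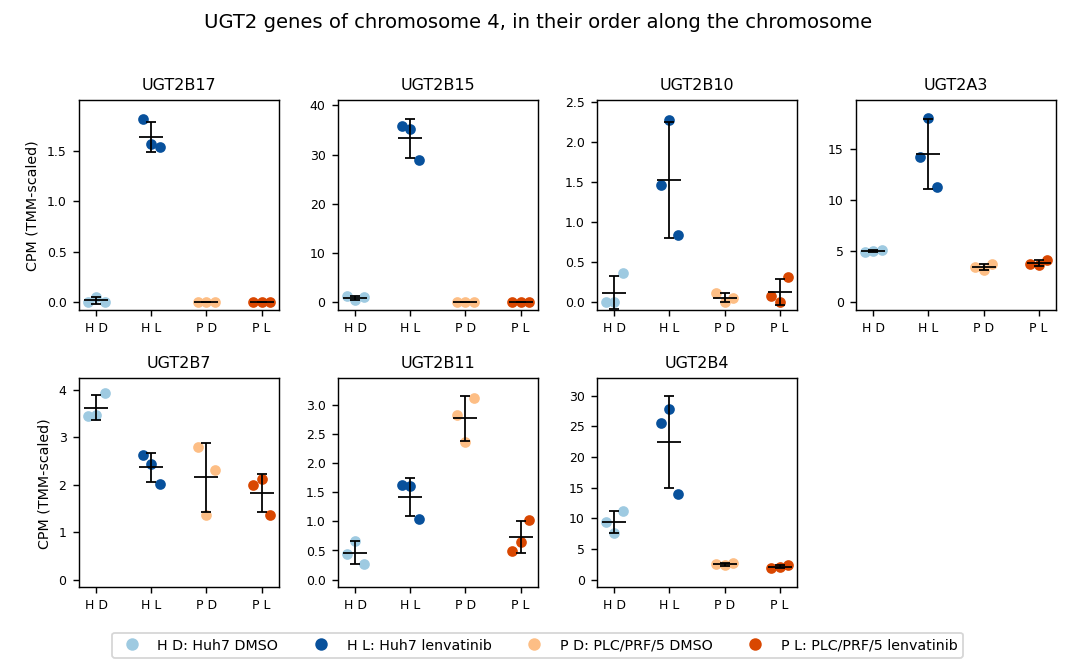
CPM (y axis, TMM-scaled, a separate scale in each panel) of 7 UGT2 genes in each library, in their order along chromosome 4; points are libraries, bars the mean and SD, H is Huh7, P is PLC/PRF/5, D is DMSO and L is lenvatinib. In Huh7 the lenvatinib libraries are above all controls in 6 panels and below them in the UGT2B7 panel, and UGT2B11 is lower with lenvatinib in PLC/PRF/5.

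Of the sulfotransferases, SULT1C2 and SULT2A1 rose in Huh7 and SULT1A1 was not called. SULT2A1, which sulfates DHEA and bile acids (chromosome 19, 47870466 to 47886397, minus strand), had 17.7, 20.9 and 21.9 CPM with DMSO and 135, 158 and 106 CPM with lenvatinib in Huh7, a rise of 2.72 ± 0.43 (adjusted p = 0.00106). It was the third most abundant enzyme of Huh7 with lenvatinib, at 59.2 ± 10.9 FPKM, and carried most of the SULT sum, which went from 11.7 ± 1.23 to 65.8 ± 11.6 FPKM (SD, n = 3). It was barely present in PLC/PRF/5, at 0.0555, 0.499 and 0.6898 CPM and then 0.242, 0.104 and 0.411 CPM with overlapping groups (-0.72 ± 0.65, adjusted p = 0.499). The difference was -3.44 ± 0.77 (adjusted p = 0.0135), and without PLC/PRF/5 DMSO replicate 3 it was -2.84 with adjusted p = 0.0558. SULT1C2, a sulfotransferase of phenolic compounds (chromosome 2, 108288639 to 108309915, plus strand), had 2.54, 3.87 and 4.44 CPM and then 38.02, 33.4 and 35.5 CPM in Huh7. The treated libraries were even and far above the controls (3.30 ± 0.35, adjusted p = 7.23e-05). The PLC/PRF/5 values were 0.499, 0.293 and 0.648 CPM and 0.497, 1.28 and 0.836 CPM (0.85 ± 0.37, adjusted p = 0.133), and the difference was -2.44 ± 0.50 (adjusted p = 0.00794). SULT1A1, the main phenol sulfotransferase, was at 0.27 ± 0.20 in Huh7 and 0.21 ± 0.20 in PLC/PRF/5. SULT1A2, SULT1B1 and SULT1E1 were under the filter and not called with lenvatinib by edgeR after filterByExpr.

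Of the 9 tested glutathione transferases, GSTP1 rose in Huh7 and GSTM3 fell in PLC/PRF/5. GSTP1, the pi-class enzyme (chromosome 11, 67583595 to 67586656, plus strand), had 244, 248 and 238 CPM and then 308, 306 and 274 CPM in Huh7, without overlap but with a change of only 0.28 ± 0.08 (adjusted p = 0.0197). Without Huh7 DMSO replicate 1 or 3 or Huh7 lenvatinib replicate 1 or 2 the adjusted p was 0.0531, 0.066, 0.0674 and 0.0619. GSTP1 stood in PLC/PRF/5 at 1159, 1031 and 966 CPM and then 982, 849 and 964 CPM, with overlapping groups (-0.18 ± 0.08, adjusted p = 0.136), and the difference between the lines was -0.46 ± 0.11 (adjusted p = 0.0162). GSTM3, a mu-class enzyme, had 129, 129.5 and 130.0 CPM and then 114, 103 and 99.7 CPM in PLC/PRF/5 (-0.29 ± 0.09, adjusted p = 0.03901), and 23.4, 29.7 and 24.8 CPM and then 22.9, 22.2 and 20.6 CPM in Huh7 (-0.24 ± 0.09, adjusted p = 0.0723). The PLC/PRF/5 call was lost without any 1 of Huh7 DMSO replicate 3, PLC/PRF/5 DMSO replicates 1, 2 and 3 and lenvatinib replicates 2 and 3, with adjusted p = 0.051, 0.0903, 0.0879, 0.0909, 0.104 and 0.129. GSTA2, an alpha-class enzyme of differentiated hepatocytes, had 0.448, 0.301 and 0.456 CPM and then 3.09, 3.45 and 2.83 CPM in Huh7, without overlap and not called (2.95 ± 1.0, adjusted p = 0.0633; 18.4% of its windows are shared), while PLC/PRF/5 had a count above 0 in 1 of 6 libraries. The rise of GSTA2 in Huh7 was called by DESeq2 (adjusted p = 0.0363), by edgeR on the Huh7 libraries alone (adjusted p = 7.95e-04), by limma on log2(FPKM + 1) and log2(FPKM + 0.1) and with a replicate block. With RLE factors, library totals, filterByExpr or no filter it was not called. GSTA4, which conjugates aldehydes from lipid peroxidation, was at 0.39 ± 0.13 (adjusted p = 0.0542) in Huh7 and 0.39 ± 0.13 (adjusted p = 0.0603) in PLC/PRF/5. The other 5 (GSTM4, GSTZ1, MGST1, MGST2 and MGST3) lay between -0.40 and 0.25 in both lines and were not called.

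NAT1, which acetylates arylamine drugs (chromosome 8, 18170477 to 18223689, plus strand), rose in Huh7, from 9.93, 8.28 and 11.4 CPM to 20.97, 18.8 and 17.7 CPM (0.96 ± 0.25, adjusted p = 0.0181). Without Huh7 DMSO replicate 1 or 2 or Huh7 lenvatinib replicate 1 the adjusted p was 0.0506, 0.0691 and 0.0563. In PLC/PRF/5 it had 7.63, 7.69 and 8.39 CPM and then 9.401, 4.43 and 9.64 CPM, with lenvatinib replicate 2 low and the groups overlapping (-0.01 ± 0.25). TPMT, which methylates thiopurine drugs, was called in neither line, at 45.3, 45.1 and 50.5 CPM and 40.2, 44.4 and 46.6 CPM in Huh7 (-0.10 ± 0.07) and 85.7, 86.6 and 91.4 CPM and 74.9, 79.2 and 76 CPM in PLC/PRF/5 (-0.20 ± 0.07, adjusted p = 0.07396). NNMT, which methylates nicotinamide, had 0.275, 0.109 and 0.684 CPM and then 0.425, 0.108 and 0.571 CPM in Huh7. In PLC/PRF/5 it had 41.5, 42.02 and 41.9 CPM and then 60.5, 61.2 and 57.8 CPM, 2 even and separate groups. That change of 0.52 ± 0.41 (adjusted p = 0.437) was not called, while a fit of the PLC/PRF/5 libraries alone called it (adjusted p = 0.00194).

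**Figure D3:**
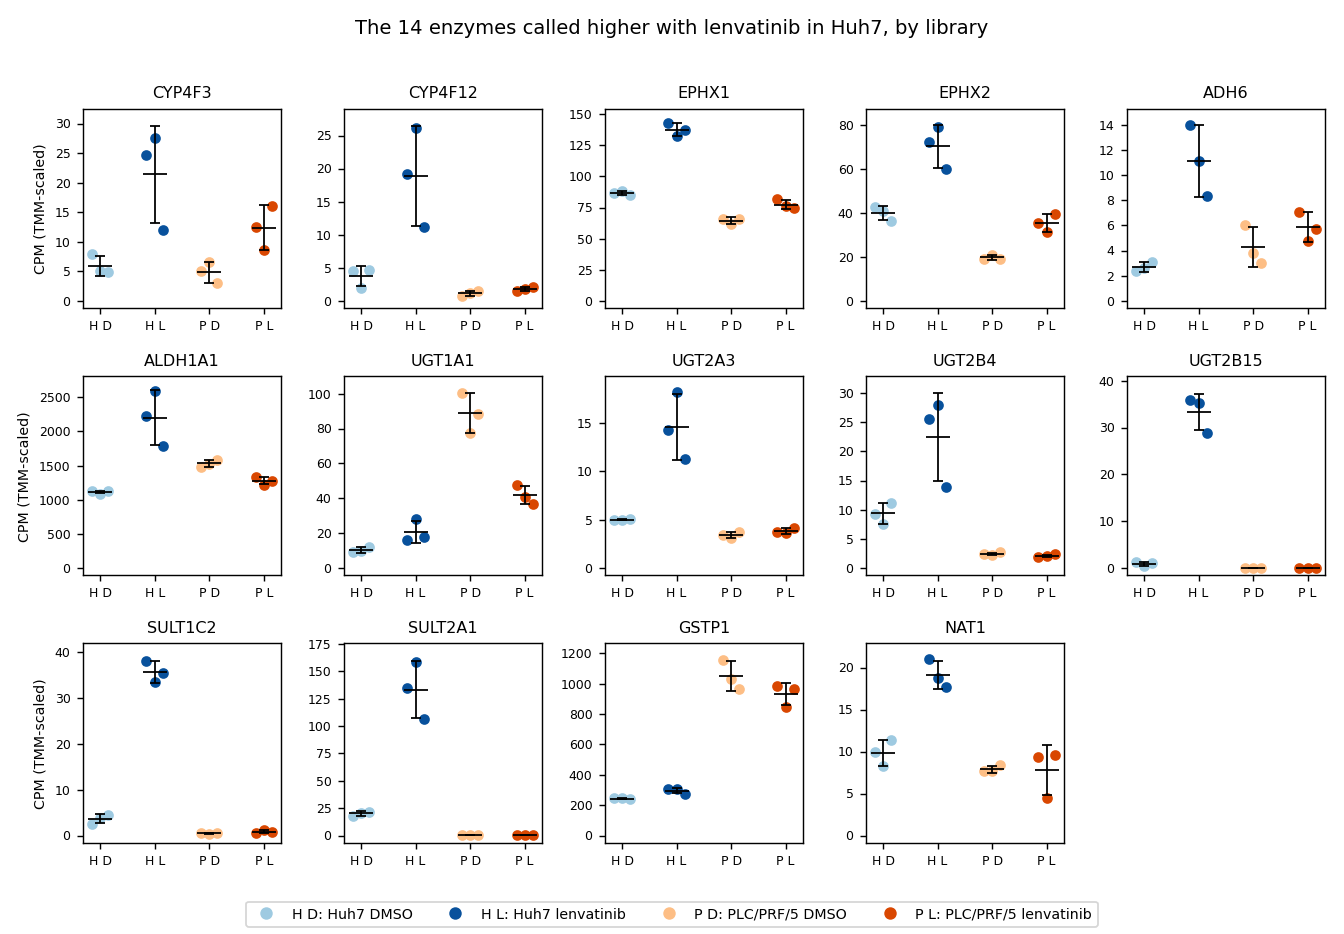
CPM (y axis, TMM-scaled, a separate scale in each panel) of the 14 enzymes called higher with lenvatinib in Huh7, in each library; points are libraries, bars the mean and SD, H is Huh7, P is PLC/PRF/5, D is DMSO and L is lenvatinib. All Huh7 lenvatinib libraries lie above all Huh7 controls, and the third lenvatinib point is the lowest of its group in 11 of the 14 panels.

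Over the 14 enzymes that rose in Huh7, replicate 3 with lenvatinib was the lowest of its group for 11 of the 14 and the highest for 0, while replicate 2 was the highest for 8 and replicate 1 for 6. The hepatocyte marker sum was also lowest in replicate 3, with 5851 CPM in replicate 3, 7351 in replicate 1 and 9169 in replicate 2. What sets replicate 3 apart was not tested. Without it, 15 enzymes were called higher and 0 lower, against 14 and 0 with it. The direction in Huh7 had exceptions in other fits: limma on log2(FPKM + 1) or log2(FPKM + 0.1) called 1 enzyme lower (CYP2B6) beside 16 higher, a fit of the Huh7 libraries alone called 2 lower (CYP2B6 and MGST2) beside 16 higher, and the fit without Huh7 DMSO replicate 1 called 1 lower beside 13 higher.

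Under DMSO the lines already differed in most of these enzymes. Among the 26 expressed in all 4 groups, PLC/PRF/5 was higher than Huh7 for 11 and lower for 9, with a median difference of -0.17, while over all genes 33.9% were higher and 33.1% lower with a median of 0.0066. The other 9 passed the filter only where they were high, so their calls, 7 lower and 1 higher (NNMT), follow in part from the filter. With them the counts are 12 higher and 16 lower of 35. Among the 26, 6 of 8 GSTs were higher in PLC/PRF/5 and 2 lower, and of 4 UGTs 3 were lower and 1 higher. SULT1A1, the one SULT of the 26, was lower. Of 2 sterol P450s 1 was lower, neither CYP4F3 nor CYP2J2 was called, and other phase I enzymes split into 3 higher and 2 lower.

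Largest on the higher side was NNMT, at 0.275, 0.109 and 0.684 CPM in Huh7 and 41.5, 42.02 and 41.9 CPM in PLC/PRF/5 (6.86 ± 0.56, adjusted p = 1.30e-06). UGT1A1 followed with 3.09 ± 0.22 (adjusted p = 3.14e-07), then FMO5 with 2.71 ± 0.22 (adjusted p = 8.02e-07), GSTM3 with 2.32 ± 0.09 (adjusted p = 3.68e-09) and GSTP1 with 2.11 ± 0.08 (adjusted p = 2.35e-09). GSTM4, MGST3, GSTA4, TPMT, ALDH1A1, GSTZ1 and POR were higher by 1.49 ± 0.15, 1.36 ± 0.11, 1.25 ± 0.13, 0.90 ± 0.07, 0.46 ± 0.10, 0.39 ± 0.15 and 0.25 ± 0.06. On the lower side, SULT2A1 was at -5.61 ± 0.53 (adjusted p = 4.05e-06), CYP2B6 at -4.13 ± 0.74 (adjusted p = 4.76e-04), SULT1C2 at -2.91 ± 0.37 (adjusted p = 3.20e-05), CYP4V2 at -2.84 ± 0.27 (adjusted p = 3.31e-06) and CYP27A1 at -1.94 ± 0.18 (adjusted p = 3.11e-06). UGT2B4 and CYP4F12 followed with -1.91 ± 0.25 and -1.74 ± 0.41, and EPHX2, SULT1A1, UGT2B7, MGST1, MGST2, UGT2A3 and EPHX1 lay between -1.02 and -0.42. GSTA2 had 87 counts over the Huh7 controls and 0 over those of PLC/PRF/5. Huh7 was higher by 22.5-fold at the lower limit of the exact counting interval used above. UGT2B15 had 193 counts in Huh7 against 8 in PLC/PRF/5, all 8 in replicate 1. The calls of GSTZ1, UGT2B7 and UGT2A3 were lost when single libraries were left out. GSTZ1 was lost without Huh7 replicate 1 or 2 or PLC/PRF/5 replicate 1 or 3 (adjusted p = 0.138, 0.0717, 0.132 and 0.0877). UGT2B7 was lost without Huh7 replicate 1, 2 or 3 or PLC/PRF/5 replicate 2 or 3 (adjusted p = 0.0602, 0.0618, 0.0931, 0.115 and 0.0607), and UGT2A3 without PLC/PRF/5 replicate 2 (adjusted p = 0.0509).

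**Figure D4:**
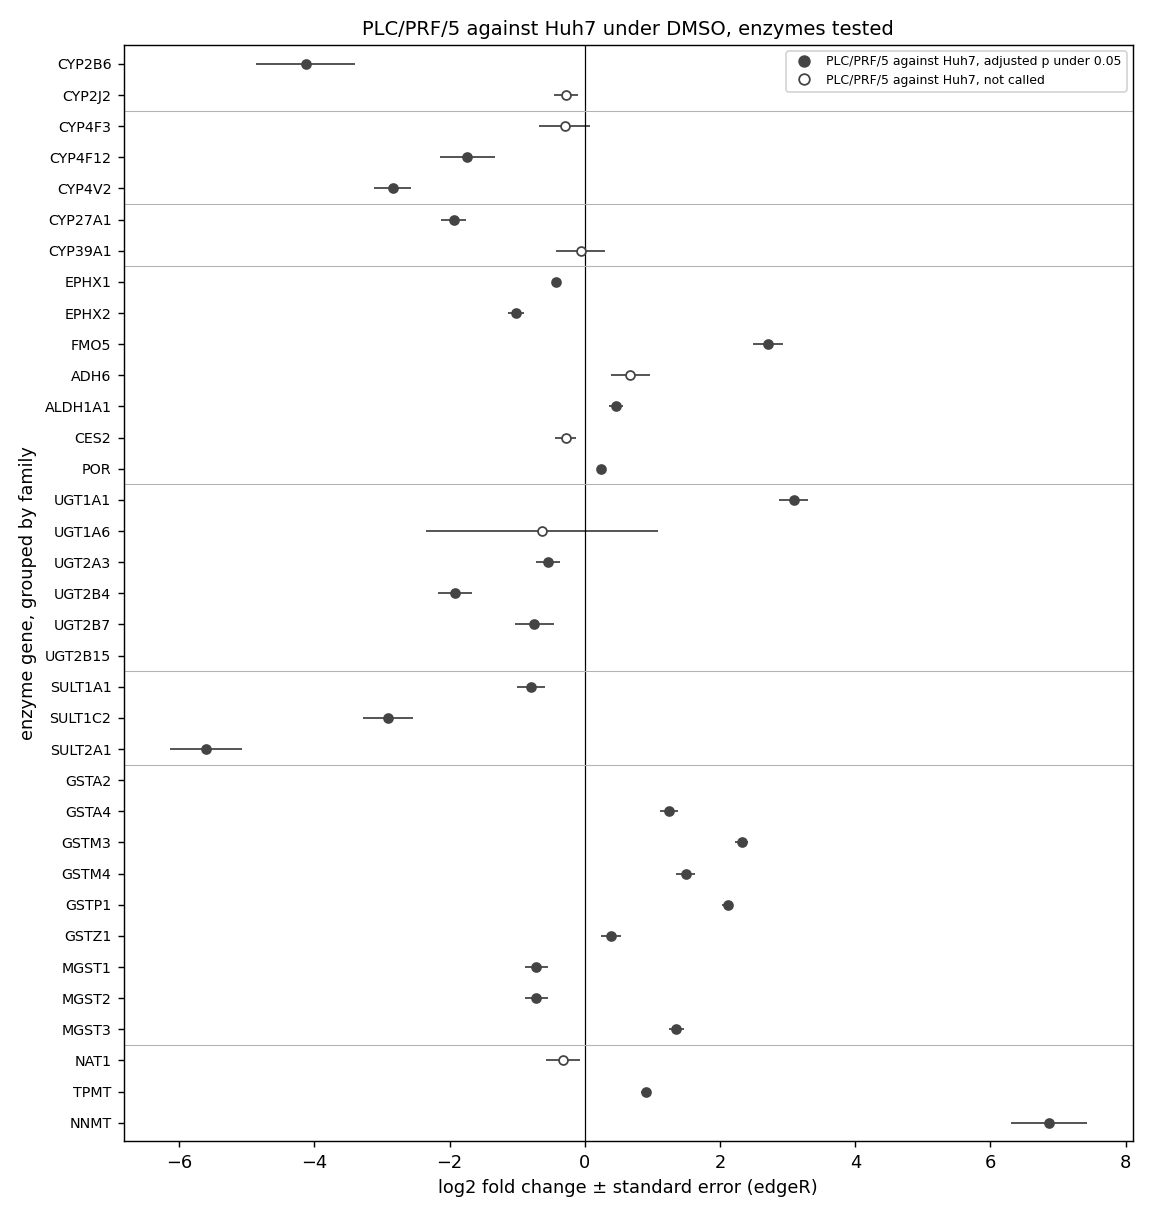
Log2 fold change of PLC/PRF/5 against Huh7 under DMSO (x axis, bars are the standard error from edgeR) of the enzymes tested, by family; filled points passed an adjusted p of 0.05. UGT2B15 and GSTA2 are not drawn because PLC/PRF/5 had 8 and 0 counts. The 3 SULT points lie left of 0, of which SULT1C2 and SULT2A1 passed the filter only through Huh7. SULT1A2, under the filter and not drawn, was higher in PLC/PRF/5. Of the GST points 6 lie right of 0 and 2 left. NNMT, which passed the filter only through PLC/PRF/5, lies farthest to the right.

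Below the expression filter, 5 enzymes were higher and 3 lower in PLC/PRF/5 by edgeR after filterByExpr. CES1, the main liver carboxylesterase, had 363 counts over the 3 PLC/PRF/5 controls and 4 over those of Huh7, a ratio of 93.1 (36.1 to 344, exact 95% counting interval), with 29.8% of its windows shared with other genes. ADH4 had 225 and 0 counts, with PLC/PRF/5 higher by 62.1-fold at the lower limit of the exact 95% counting interval. CYP4F11 was at 5.90 ± 1.22 (adjusted p = 0.00144), UGT2B11 at 2.58 ± 0.43 (adjusted p = 2.69e-04) and SULT1A2 at 2.48 ± 0.45 (adjusted p = 5.23e-04), the last with 22.0% of its windows shared. CYP2C8, a P450 that oxidises taxanes and other drugs, was higher in Huh7, with 82 counts against 0. The lower limit of its exact 95% counting interval was 21.2-fold, and the Huh7 controls ranged from 0.107 to 0.725 CPM. ALDH3A1 and SULT1B1 were also lower in PLC/PRF/5, at -2.83 ± 0.69 (adjusted p = 0.00424) and -3.31 ± 1.08 (adjusted p = 0.0217).

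Per length, 2 enzymes stood far above the rest in every group. In Huh7 with DMSO these were ALDH1A1 (327 ± 6.69 FPKM) and GSTP1 (115 ± 2.31), followed by EPHX1 (28.8 ± 0.559) and POR (14.8 ± 0.431; SD, n = 3). PLC/PRF/5 with DMSO had GSTP1 first (498 ± 44.6 FPKM) and ALDH1A1 second (450 ± 16.5), with overlapping libraries, and then GSTA4 (24.7 ± 3.79). With lenvatinib the order at the top was ALDH1A1, GSTP1, SULT2A1 and EPHX1 in Huh7, and GSTP1, ALDH1A1, GSTA4 and EPHX1 in PLC/PRF/5. Of the 55 enzymes, 24 reached 1 FPKM in Huh7 with DMSO and 29 with lenvatinib, and 21 and 24 did in PLC/PRF/5.

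Genes that supply the enzymes were measured as well. Of 15 cofactor genes, 6 rose and 3 fell in Huh7, and 4 rose and 3 fell in PLC/PRF/5, with medians of 0.27 and 0.11. Over all genes 11.4% were called higher and 13.3% lower in Huh7, and 9.01% and 11.1% in PLC/PRF/5. UGDH, which makes the UDP-glucuronic acid that UGTs use, was at 1.39 ± 0.13 (adjusted p = 3.40e-05) in Huh7 and 0.40 ± 0.13 (adjusted p = 0.0536) in PLC/PRF/5, and the difference was called (-0.99 ± 0.18, adjusted p = 0.00496). UGP2, the step before it, fell in both, with -0.55 ± 0.05 (adjusted p = 2.32e-05) and -0.22 ± 0.05 (adjusted p = 0.0106). PAPSS2, which makes the sulfate donor of SULTs, rose in Huh7 (0.51 ± 0.06, adjusted p = 9.37e-05) and was at -0.11 ± 0.06 (adjusted p = 0.217) in PLC/PRF/5. GCLM, a subunit of the rate-limiting enzyme of glutathione synthesis, rose in both, with 0.95 ± 0.10 (adjusted p = 4.72e-05) and 1.01 ± 0.10 (adjusted p = 8.69e-05).

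Among 15 tested of 18 listed regulators of these enzymes, 8 rose and 1 fell in Huh7, and 3 rose and 2 fell in PLC/PRF/5, with medians of 0.44 and -0.0091, where all genes had 11.4% higher and 13.3% lower in Huh7 and 9.01% and 11.1% in PLC/PRF/5. The one that fell in Huh7 was NR0B2, a repressor of bile acid and P450 genes, at -2.85 ± 0.58 (adjusted p = 0.00442), with a difference between the lines of 2.63 ± 0.77 (adjusted p = 0.0448). CEBPA, a liver transcription factor, rose in both lines, by 0.99 ± 0.12 (adjusted p = 1.71e-04) in Huh7 and 0.74 ± 0.12 (adjusted p = 0.00219) in PLC/PRF/5, as did RXRA, the shared partner of nuclear receptors, by 0.53 ± 0.09 (adjusted p = 0.00207) in Huh7 and 0.44 ± 0.10 (adjusted p = 0.00914) in PLC/PRF/5. HNF4A was at 0.62 ± 0.19 (adjusted p = 0.0383) in Huh7 and 0.14 ± 0.19 (adjusted p = 0.679) in PLC/PRF/5. AHR, the receptor for aromatic hydrocarbons, went opposite ways, with 0.45 ± 0.08 (adjusted p = 0.00139) in Huh7 and -0.83 ± 0.08 (adjusted p = 7.19e-05) in PLC/PRF/5. Under DMSO 10 of the 15 regulators were lower in PLC/PRF/5 and 2 higher, against 33.1% lower and 33.9% higher over all genes.

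Of 37 further xenobiotic enzymes outside the set, 19 were tested, and 9 rose and 1 fell in Huh7 while 4 rose and 0 fell in PLC/PRF/5 by edgeR (2 lower at an unadjusted p under 0.05). The median changes were 0.33 and 0.038. The shares over all genes, which also stand beside the next list, were 11.4% higher and 13.3% lower in Huh7 and 9.01% and 11.1% in PLC/PRF/5. ALDH2, which oxidises acetaldehyde, rose in both lines, by 0.39 ± 0.09 (adjusted p = 0.0103) in Huh7 and 0.71 ± 0.09 (adjusted p = 5.46e-04) in PLC/PRF/5. GSTK1 rose in Huh7 (0.64 ± 0.08, adjusted p = 1.61e-04) and GSTO1 fell there (-0.58 ± 0.07, adjusted p = 1.30e-04). Of 6 tested genes of FGF19 and bile acid control, 2 rose and 1 fell in Huh7, and 0 rose and 1 fell in PLC/PRF/5 by edgeR (0 and 1 at an unadjusted p under 0.05). This list shares members with the regulators above, so the Huh7 calls of NR0B2 and HNF4A are counted in both. KLB, the co-receptor for FGF19, went opposite ways, at 0.72 ± 0.09 (adjusted p = 2.11e-04) and -0.69 ± 0.09 (adjusted p = 5.44e-04).

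The promoters of 39 enzymes, again the 250 bases before the start, were searched on both strands for short motifs. GTTAAT, a core of the HNF1 site, was in a promoter of 10 of the 39 and of 7.5% of all 27305 genes with a promoter, where a gene with several promoters counts once if any holds the motif. It was found for 1 of the 10 enzymes called in Huh7 and for 4 of the 17 tested and not called. TGACNNNGC, the antioxidant response element, was found for 10 of 39 (13.2% of all genes), for 3 of the 10 and 4 of the 17. GCGTG, the core bound by AHR, was found for 8 of 39 (36.2% of all genes), for 1 of the 10 and 7 of the 17. CCAAT was found for 15 of 39 (37.0% of all genes), for 3 of the 10 and 6 of the 17. The full HNF1 site and the inverted repeat bound by FXR were found for 0 of 39 (0.00732% and 0.0% of all genes). A match is a description of the letters and not a site.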

How the data were processed

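Raw read counts and FPKM per gene, both deposited by the authors per the file headers, were used for 12 libraries grouped by their titles; 12 columns of samples not analysed here were left out. HISAT2 and the build hg19 are named in the submitters' processing notes; the aligner's version, the annotation, strand setting and counter are not given in the sources. The labels describe mRNA read as single ends of 50 bases. Counts were tested with edgeR 4.0.16 (R 4.3.3; quasi-likelihood F test, robust, TMM, 1 coefficient per group, all 12 libraries) over genes whose FPKM averaged 0.5 or more, with p adjusted by Benjamini-Hochberg (threshold 0.05). CPM are counts scaled to the library's sum over tested genes and its TMM factor. Standard errors were taken from F (log2 fold change divided by its root). The difference between the lines is PLC/PRF/5 minus Huh7. The common biological coefficient of variation was 0.234.

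The members and all lists were chosen with earlier results of these data known. Library values are given for enzymes called with lenvatinib at an absolute log2 fold change of at least 0.58, for CYP3A4 and POR, and for the most abundant enzyme of each family; others were added for the role they play in the text. Alternatives were RLE factors, library totals, DESeq2 1.42.0, limma 3.58.1 on log2(FPKM + 1) and log2(FPKM + 0.1), no filter, filterByExpr, only the groups compared, a replicate block, and leaving out each library. The fit was tested on simulated data with 100 changes of 1.5-fold and 100 of 2-fold. It found 22 and 53 of them for Huh7, 28 and 59 for PLC/PRF/5, and 28 and 62 for the DMSO comparison. For the difference between the lines it found 6 and 27. Far fewer genes changed in the simulation than were called in the data (3850 of 15587 in Huh7). The adjusted threshold depends on that number, so these shares do not carry over to the data. An enzyme not called may still have changed. An enzyme with 100 counts carries a counting error of 10%. Counting intervals and their lower limits cover counting error only. Of 43 enzymes checked, 0 had FPKM that departed from the counts by over 1.5-fold. Positions are from GENCODE 29 on GRCh38 and promoters from RefSeq on GRCh38.p14, another build than hg19, and 39 enzymes matched a promoter. Shared windows are 50-base stretches of a gene's GENCODE transcripts that also occur in those of other genes. Python 3.11.15, pandas 2.3.3, scipy 1.17.1 and matplotlib 3.10.9 were used.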

Additional observations from a re-analysis of the deposited data

Results flagged for a closer look

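For 11 enzymes the change with lenvatinib differed between the lines by edgeR's test of the difference itself (log2 fold change in PLC/PRF/5 minus that in Huh7, adjusted p over all genes). All 11 differences were negative. Among phase I enzymes they were -0.41 ± 0.08 (SE) for EPHX1 (adjusted p = 0.00592), -1.60 ± 0.41 for ADH6 (adjusted p = 0.0236), -1.24 ± 0.15 for ALDH1A1 (adjusted p = 3.49e-04) and -0.53 ± 0.09 for POR (adjusted p = 0.00218). Of these, EPHX1 rose in both lines, ADH6 and ALDH1A1 were called in Huh7 alone, and POR was called in PLC/PRF/5 alone.

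Among conjugating enzymes the differences were -2.08 ± 0.29 for UGT1A1 (adjusted p = 8.80e-04), -1.37 ± 0.25 for UGT2A3 (adjusted p = 0.00426), -1.51 ± 0.35 for UGT2B4 (adjusted p = 0.0142), -2.44 ± 0.50 for SULT1C2 (adjusted p = 0.00794), -3.44 ± 0.77 for SULT2A1 (adjusted p = 0.0135) and -0.46 ± 0.11 for GSTP1 (adjusted p = 0.0162). UGT1A1 rose in Huh7 and fell in PLC/PRF/5, and the other 5 were called in Huh7 alone. The value for UGT2B15 was -9.73 ± 2.25 (adjusted p = 0.0229). It rests on 8 counts in PLC/PRF/5 DMSO replicate 1 and is no measure of size.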

How the results depend on the processing

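The number of enzymes called stayed within 1.5 times under every alternative run. With single libraries left out Huh7 gave 12 to 15, PLC/PRF/5 gave 5 to 9, the difference 10 to 12 and the DMSO comparison 26 to 28. Replicate numbers are not said to pair the libraries, and residual correlations of same-numbered libraries were -0.0350 to 0.0494, which cannot settle whether they were paired. With a replicate block 16, 7, 10 and 26 enzymes were called, against 14, 7, 11 and 28 without. The block took the calls of CYP4F3 in PLC/PRF/5 (adjusted p = 0.0737), GSTM3 in PLC/PRF/5 (0.0691), UGT2B4 for the difference (0.072), and UGT2B7 (0.0764) and GSTZ1 (0.0902) under DMSO. The difference for GSTA2, 2.60 and not called in the counts, turned to -1.24 in limma on log2(FPKM + 1) and -2.15 on log2(FPKM + 0.1), both called; GSTA2 has 1 PLC/PRF/5 library above 0, and the cause was not tested. Without the expression filter the calls lost were CYP4F3 (adjusted p = 0.0599) and GSTM3 (0.0892) in PLC/PRF/5, the differences of UGT2B15 (0.0812) and SULT2A1 (0.0672), and UGT2B7 (0.0967) and GSTZ1 (0.0584) under DMSO. With filterByExpr they were GSTM3 in PLC/PRF/5 (0.053) and UGT2B7 under DMSO (0.0551). The counting error is 10% at 100 counts and larger below, which limits CYP3A4 in every library.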
